A study of Mus musculus with 6 samples.

Results

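The insulin-like growth factor (IGF) family was followed in bulk RNA sequencing of hepatic stellate cells isolated from mice, through 10 genes picked by symbol from the 22966 rows of the count table. They comprised the 2 ligand genes Igf1 and Igf2, the 2 receptor genes Igf1r and Igf2r, and 6 binding protein genes, Igfbp2 to Igfbp7. All 10 were found once each, and 9 had enough counts to be tested, all except Igf2. IGF-I and IGF-II are secreted growth factors that act through the tyrosine kinase IGF1R. IGF2R takes up IGF-II and sorts mannose 6-phosphate tagged enzymes to lysosomes, and it carries no kinase. The binding proteins hold IGFs in plasma and matrix and set how much reaches the receptor. Liver is the main source of circulating IGF-I, made by hepatocytes under growth hormone, while macrophages make IGF-I that acts locally in injured tissue.

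The comparison was between 3 libraries titled Cre and 3 libraries titled flox. Every library carried the same genotype entry, BucheHep, and a CCl4 treatment entry, carbon tetrachloride being a hepatotoxin used to induce liver fibrosis, and the housing notes name BucheΔHep mice for all. The series concerns a butyrylcholinesterase knockout in hepatocytes and stellate cell activation. The gene, Bche, had 15, 8 and 2 counts in Cre 1 to 3 and 17, 6 and 21 counts in flox 1 to 3, overlapping and close to absent in both groups (log2 ratio -0.88 ± 0.80, edgeR adjusted p = 0.467), so it gives no check of the labels. The groups rest on the titles alone, and no source used here gives the Cre driver, age, sex or CCl4 schedule. No label says that replicates were separate mice, so a p-value here measures spread among libraries that may be technical.

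The 6 libraries held 37273142 to 41006722 counts, a ratio of 1.10 at most. Per length, the 15 macrophage and Kupffer cell markers, led by Lyz2, Cd5l and Marco, summed to 1692 to 2107 FPKM in Cre and 4677 to 13435 FPKM in flox. FPKM are counts scaled to gene length and to the library total. The 15 stellate and mesenchymal markers, led by Dcn, Col1a1 and Col1a2, summed to 702 to 1114 FPKM in Cre and 362 to 648 FPKM in flox. This was below the macrophage sum in each of the 6 libraries. Lyz2 alone held 545, 1179 and 955 FPKM of the macrophage sum in Cre 1 to 3, and sums of unlike markers do not rank cell content. Markers of both kinds were present in every library, so the label stellate cell describes the isolation and not the whole content. The 10 endothelial markers summed to 664 to 1099 FPKM in Cre and 326 to 1265 FPKM in flox, with flox 3 highest. No marker of the 5 lists was at 0 counts in any library. At the threshold of 0.05 on the edgeR adjusted p, 15.3% of all 14795 genes tested were called, 6.35% higher and 8.94% lower in Cre. Of the 15 macrophage markers 14 fell, all except Lyz2, and 0 rose. Of the 15 stellate markers 0 fell and 3 rose, namely Hand2, Pdgfra and Dcn. Flox 3 stood apart from flox 1 and flox 2, at -6.61 on the first principal component against -64.3 and -89.3, with the Cre libraries at 39.8 to 63.8. In bulk RNA, fewer cells of a type and less RNA per cell cannot be told apart.

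Per length, Igfbp7 was the highest of the family in every library, and the order below it differed between the groups. Igfbp7 encodes a low-affinity IGF binder that is also a matrix protein of blood vessels. It stood at 445, 482 and 612 FPKM in Cre 1 to 3 and at 247, 127 and 320.2 FPKM in flox 1 to 3. Its share of the summed FPKM of the 10 genes was 79.8% ± 6.39 in Cre and 68.7% ± 12.9 in flox (SD, n = 3 each), and the groups overlapped in this share. The second place was held by Igfbp3 in all 3 Cre libraries, at 35.1 to 72.8 FPKM, and by Igf2r in all 3 flox libraries, at 20.6 to 36.0 FPKM. Igf1 ranked number 3 in flox 1 and flox 2, at 17.8 and 27.9 FPKM, but number 7 in flox 3, at 4.17 FPKM, and number 7 in Cre 1 to 3, at 3.46, 4.30 and 3.05 FPKM. In flox, Igf1 (16.6 ± 11.9 FPKM), Igfbp4 (14.4 ± 0.0629), Igfbp3 (14.3 ± 2.09) and Igfbp6 (14.02 ± 3.89) did not differ beyond their spread. In Cre, Igfbp6 (24.0 ± 10.3 FPKM) overlapped both Igf2r (25.7 ± 1.62) and Igfbp4 (16.8 ± 6.89), while Igf2r was above Igfbp4 in every library. Igf1r averaged 5.68 ± 0.605 FPKM in Cre and 2.88 ± 1.30 FPKM in flox. Igfbp2, Igfbp5 and Igf2 were lowest, each below 2 FPKM in every library. The 10 genes together summed to 601, 612 and 706 FPKM in Cre 1 to 3 and to 349.7, 231 and 397 FPKM in flox 1 to 3, without overlap.

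**Figure D1:**
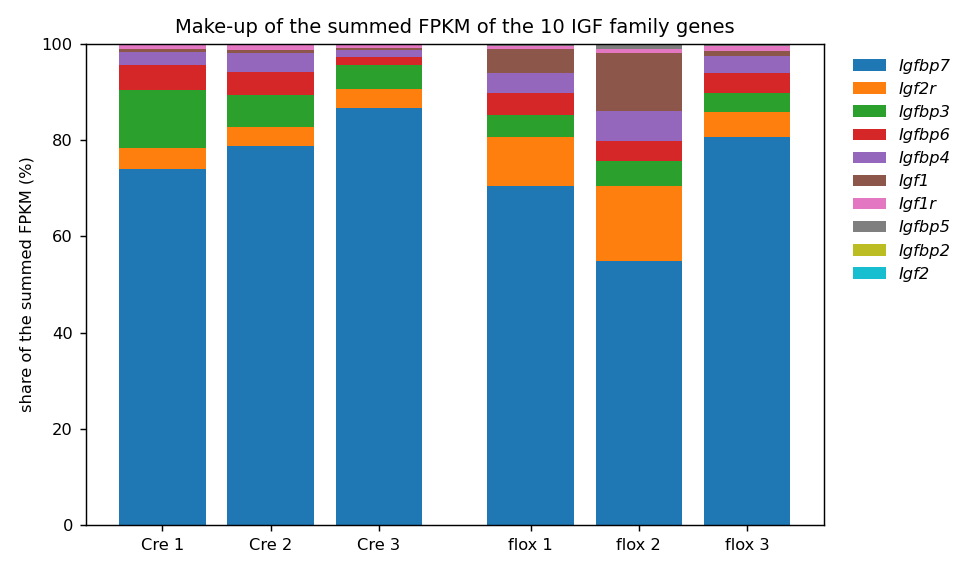
Share of the summed FPKM of the 10 IGF family genes held by each gene (percent, vertical axis) in each Cre and flox library (horizontal axis). Igfbp7 fills 74.1% to 86.7% of the Cre bars and 55.0% to 80.6% of the flox bars, and the Igf1 segment is widest in flox 2, at 12.1%.

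The start regions of 4 tested members are shown because their Cre and flox libraries did not overlap in CPM, counts scaled to the library size, Igf1 being lower in Cre and Igf1r, Igfbp3 and Igfbp7 higher. Each sequence is RefSeq's for GRCm38.p6 and runs 5′ to 3′ on the gene's strand, from 250 bases before to 50 bases after a start site. Capitals mark matches, on either strand, to 5 motifs. These were the TATA box with the letters TATAAA, the GC box with the letters GGGCGG, the CCAAT box, the AP-1 motif with the letters TGANTCA, and the ETS core of PU.1 motifs with the letters GAGGAA. N stands for any base, which is a loose form of the AP-1 motif. No match overlapped another in these 4 regions.
Igf1, chr10:87860861-87861160, plus strand: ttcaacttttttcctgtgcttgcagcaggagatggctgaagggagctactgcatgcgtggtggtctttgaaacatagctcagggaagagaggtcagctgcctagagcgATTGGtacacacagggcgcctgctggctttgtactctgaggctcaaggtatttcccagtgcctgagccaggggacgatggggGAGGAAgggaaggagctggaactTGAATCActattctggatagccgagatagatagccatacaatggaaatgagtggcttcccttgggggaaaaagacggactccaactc
Igf1r, chr7:67952007-67952306, plus strand: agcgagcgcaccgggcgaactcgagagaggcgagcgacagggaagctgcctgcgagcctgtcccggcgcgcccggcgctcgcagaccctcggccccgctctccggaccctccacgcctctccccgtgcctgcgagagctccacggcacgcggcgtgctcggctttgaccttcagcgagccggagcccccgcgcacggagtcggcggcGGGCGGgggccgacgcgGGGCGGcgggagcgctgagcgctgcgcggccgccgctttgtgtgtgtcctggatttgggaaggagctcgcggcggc
Igfbp3, chr11:7213874-7214173, minus strand: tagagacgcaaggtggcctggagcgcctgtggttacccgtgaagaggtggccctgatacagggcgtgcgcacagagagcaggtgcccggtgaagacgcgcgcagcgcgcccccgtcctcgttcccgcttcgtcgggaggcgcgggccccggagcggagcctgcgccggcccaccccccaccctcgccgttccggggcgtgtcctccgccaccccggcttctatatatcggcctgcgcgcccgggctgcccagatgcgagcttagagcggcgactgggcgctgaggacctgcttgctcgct
Igfbp7, chr5:77407996-77408295, minus strand: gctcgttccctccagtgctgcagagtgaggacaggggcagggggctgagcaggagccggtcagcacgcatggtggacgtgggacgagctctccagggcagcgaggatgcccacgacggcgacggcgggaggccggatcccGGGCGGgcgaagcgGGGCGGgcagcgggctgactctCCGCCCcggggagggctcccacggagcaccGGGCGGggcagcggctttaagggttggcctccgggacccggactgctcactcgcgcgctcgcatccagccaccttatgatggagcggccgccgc
The Igf1 window differed most in base composition. It held 6 CG dinucleotides, near the median of 7 over 32851 start regions, while Igf1r held 48, Igfbp3 37 and Igfbp7 33, more than 98.8%, 94.4% and 91.4% of start regions. Igf1 had a CCAAT match on the opposite strand at -142, the ETS core at -60 and the AP-1 motif at -37, counted from the start site to the match's first base. That AP-1 match reads TGAATCA, with A in the place of N. Igf1r had a GC box at -43 and -26. Igfbp7 had 4 GC boxes, at -110, -96, -74 and -44. The Igfbp3 window held no match to the letters of the 5 motifs. It does read tatatat before the start site, which the letters TATAAA do not match, so a TATA-like element is not excluded. Over all start regions 13.6% held the TATA box, 35.7% the GC box, 37.4% the CCAAT box, 7.81% the AP-1 motif and 28.3% the ETS core. The Igf1 start used by RefSeq lies inside the GENCODE gene (GRCm38, chromosome 10, 87858265 to 87937042). The whole Igf1r window lies before the GENCODE gene, which starts at 67952827 on chromosome 7. All 10 members matched the table, through 14 start regions.

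Among the ligands, Igf1 averaged 29.3 ± 5.02 CPM in Cre and 155 ± 115 CPM in flox (SD, n = 3 each), with a wide spread within flox. Igf1 stood at 27.7, 34.9 and 25.2 CPM in Cre 1 to 3 and at 165, 265 and 35.5 CPM in flox 1 to 3. Each Cre library was below each flox library, though Cre 2 and flox 3 were nearly equal, and in FPKM, which carry no composition factor, Cre 2 lay above flox 3. The log2 ratio of Cre to flox was -2.41 ± 0.65 (SE, 3 libraries a group, edgeR quasi-likelihood test, Benjamini-Hochberg adjusted p = 0.0525), which missed the threshold of 0.05 and is a factor of 5.30. The size rested on flox 2 and on the scale, at -1.75 without flox 2 and -1.63 on log2(FPKM + 1). The adjusted p was 0.000680 in DESeq2, 0.0394 without a count filter, 0.120 in limma-voom, 0.000871 without flox 3 and 0.174 without Cre 1. The macrophage marker list moved the same way, with a mean of 6.36, 5.81 and 6.21 log2 CPM in Cre 1 to 3 and 9.31, 9.80 and 8.09 in flox 1 to 3, and its part in the Igf1 values was not tested. Hepatocyte markers summed to 28.2 to 140.2 FPKM in Cre and 82.2 to 325 FPKM in flox, with flox 3 highest. The part of hepatocyte RNA in the Igf1 values was not tested either.

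Igf2, the fetal growth factor gene, was close to absent. It had 18, 11 and 10 counts in Cre 1 to 3 and 8, 4 and 6 counts in flox 1 to 3, and too few libraries reached the filter's minimum count of 10 at the typical library size. Every Cre library had more counts than every flox library. Fitted without the filter, its log2 ratio of Cre to flox was 1.03 ± 0.79 and did not pass (edgeR adjusted p = 0.443). Part of its exons are shared with the predicted gene Gm49394 on the same strand, so these counts may include reads of that gene. H19, the imprinted RNA gene 72.6 kb from Igf2 on chromosome 7, had 0.476, 2.17 and 0.269 CPM in Cre 1 to 3 and 0.263, 0.374 and 0.0995 CPM in flox 1 to 3, with overlapping groups.

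**Figure D2:**
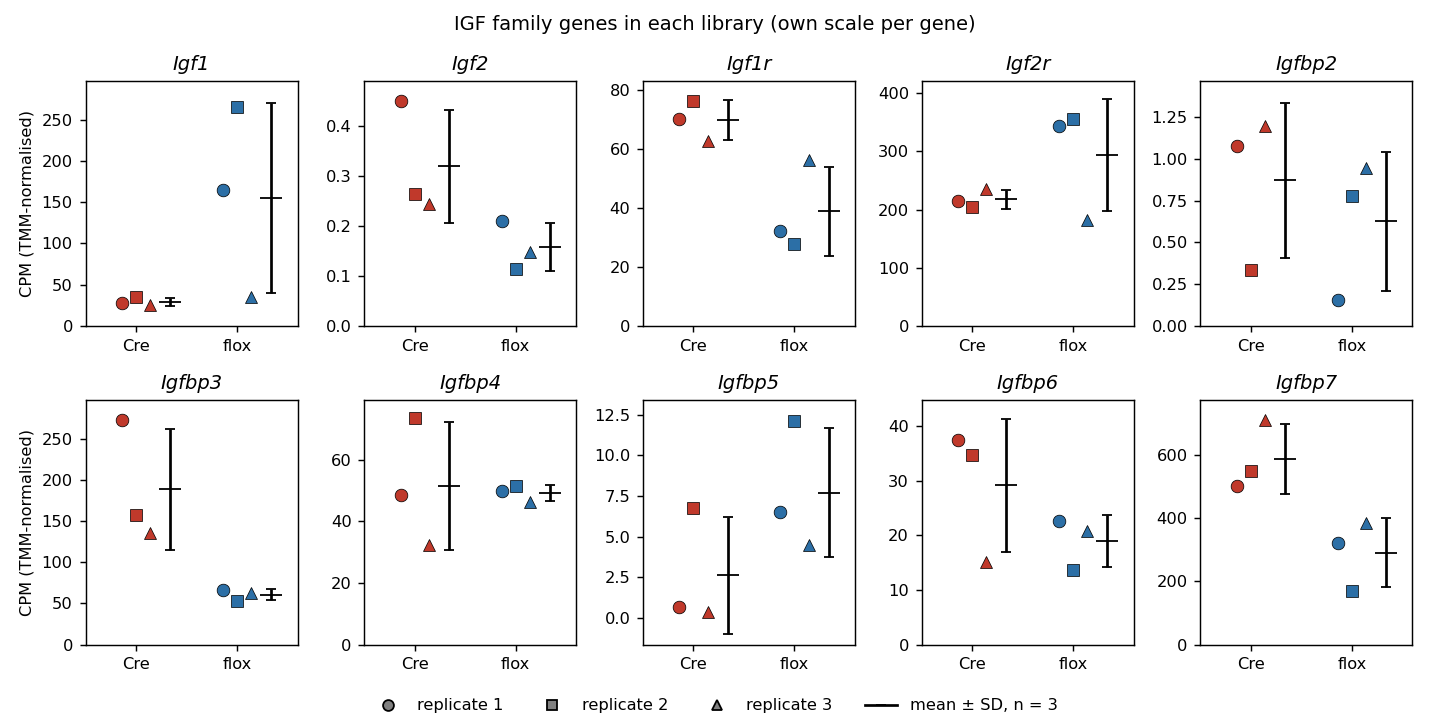
TMM-normalised CPM (vertical axis, own scale from 0 or below for each gene) of the 10 IGF family genes in 3 Cre and 3 flox libraries, with a point per library and the mean ± SD beside them. Igfbp3 stands at 136 to 273 CPM in Cre and 52.9 to 66.3 CPM in flox, and the flox 3 point of Igf1 (35.5 CPM) lies at the level of the Cre points.

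The receptor genes pointed in opposite directions and neither passed the test. Igf1r, which encodes the signalling receptor, stood at 70.2, 76.2 and 62.8 CPM in Cre 1 to 3 and at 32.4, 28.0 and 56.2 CPM in flox 1 to 3. The groups did not overlap, with flox 3 next to the Cre libraries. On the log2 scale Igf1r was higher by 0.84 ± 0.27 (edgeR adjusted p = 0.0755), with adjusted p of 0.0245 in DESeq2, 0.00182 without flox 3 and 0.225 without flox 1. Igf2r stood at 214, 204 and 236 CPM in Cre 1 to 3 and at 344, 355 and 183 CPM in flox 1 to 3, so that flox 3 fell below all Cre libraries and the groups overlapped. The log2 ratio for Igf2r was -0.43 ± 0.25 (edgeR adjusted p = 0.270). Without flox 3 it was -0.68 ± 0.10 and past the threshold (edgeR adjusted p = 0.00460). Per length, Igf1r was at 0.226, 0.258 and 0.183 of Igf2r in Cre 1 to 3 and at 0.0648, 0.0542 and 0.212 in flox 1 to 3, and these ratios overlapped. The ratio of Igf1 to Igf1r did not overlap, at 0.597, 0.691 and 0.606 in Cre 1 to 3 and 7.69, 14.3 and 0.955 in flox 1 to 3. The related insulin receptor gene Insr had a log2 ratio of 0.08 ± 0.14 (edgeR adjusted p = 0.717).

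Igfbp3 rose in the Cre libraries and was the member past the threshold. IGFBP3 is the main carrier of IGFs in blood. Its gene (GRCm38, chromosome 11, 7206086 to 7213923, minus strand) stood at 273, 157 and 136 CPM in Cre 1 to 3 and at 66.3, 52.9 and 62.7 CPM in flox 1 to 3. All 3 Cre libraries were above all flox libraries, Cre 1 was highest, and flox 3 stayed within the range of flox 1 and flox 2. The log2 fold change was 1.64 ± 0.27, a factor of 3.11 (edgeR adjusted p = 0.0241). The adjusted p was 2.25e-06 in DESeq2 and 0.0349 in limma-voom, and it exceeded 0.05 without flox 1 (0.0850), flox 2 (0.0757), Cre 1 (0.107) or Cre 2 (0.0798), 4 fits in which 0 of all genes were called. The stellate marker list overlapped between groups, with means of 5.10, 5.25 and 5.96 log2 CPM in Cre 1 to 3 and 5.58, 4.90 and 4.496 in flox 1 to 3. Of its 15 markers 4 were fully apart in CPM and higher in Cre and 0 lower, beside 19.6% and 20.0% of all genes. The part of stellate RNA in the Igfbp3 values was not tested. Igfbp1, whose gene lies 3.54 kb from Igfbp3 on the opposite strand and encodes an insulin-regulated hepatocyte product, stood at 10.3, 2.51 and 23.4 CPM in Cre 1 to 3 and 3.31, 6.44 and 5.85 CPM in flox 1 to 3. These groups overlapped, with a log2 ratio of 1.22 ± 0.73 (edgeR adjusted p = 0.280). Igfals, the gene of the acid-labile subunit that completes the circulating complex, had 0 to 12 counts in a library and was not tested.

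Igfbp7 was higher in every Cre library but did not pass. It stood at 502, 550.2 and 713 CPM in Cre 1 to 3 and at 321, 169 and 384 CPM in flox 1 to 3. The log2 fold change was 1.01 ± 0.31 (edgeR adjusted p = 0.0693), with adjusted p of 0.0134 in DESeq2, 0.0495 on genes with a mean of at least 1 FPKM, 0.0235 without flox 3 and 0.168 without flox 1. Exons of Igfbp7 share 85 bases with Polr2b on the opposite strand, and no source used here says whether counting used strand. The endothelial marker list overlapped between groups, with means of 5.96, 6.83 and 5.91 log2 CPM in Cre 1 to 3 and 6.45, 6.27 and 7.10 in flox 1 to 3. This mean was highest in flox 3, the flox library with the most Igfbp7. In Cre 3, the Cre library with the most Igfbp7, it was about level with Cre 1 and below Cre 2. The summed FPKM of the list was 664, 1099 and 721 in Cre 1 to 3, with Cre 3 above Cre 1. The part of endothelial RNA in the Igfbp7 values was not tested.

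The other binding protein genes overlapped between the groups. Igfbp4, which encodes an inhibitor of IGF action that the protease PAPP-A cleaves, stood at 48.6, 73.7 and 32.3 CPM in Cre 1 to 3 and at 49.98, 51.6 and 46.4 CPM in flox 1 to 3. Its log2 ratio of Cre to flox was 0.06 ± 0.28 (edgeR adjusted p = 0.895), ran from -0.26 without Cre 2 to 0.33 without Cre 3, and was -0.02 in limma-voom, so it has no stable direction. Igfbp6, whose product prefers IGF-II, stood at 37.5, 34.7 and 15.1 CPM in Cre 1 to 3 and at 22.7, 13.6 and 20.7 CPM in flox 1 to 3, or 0.62 ± 0.37 on the log2 scale (edgeR adjusted p = 0.279). Cre 1 and Cre 2 were above every flox library and Cre 3 was not. The mesothelial marker list was likewise lowest in Cre 3 within its group, with means of 5.79, 6.13 and 4.06 log2 CPM in Cre 1 to 3 against 4.56, 3.97 and 4.38 in flox 1 to 3. None of its 10 members passed. All 10 had a positive log2 fold change, beside 7543 of all 14795 genes tested, though Krt19 (0.005) and Krt8 (0.0003) were at about 0. The part of mesothelial RNA in the Igfbp6 values was not tested.

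Igfbp5, which encodes a matrix-bound IGF binder, was carried in the Cre group by a single library. It had 28, 281 and 16 counts in Cre 1 to 3 and 248, 422 and 180 counts in flox 1 to 3. Cre 1 and Cre 3 were below every flox library and Cre 2 was within their range. The log2 fold change was -1.55 ± 1.04 (edgeR adjusted p = 0.328). Without Cre 2 it was -3.78 (edgeR adjusted p = 0.0798), and it was -2.46 in limma-voom and -0.65 on log2(FPKM + 1). Igfbp2, which lies 5.46 kb from Igfbp5 on chromosome 1 and encodes a plasma binding protein made by hepatocytes, had 43, 14 and 49 counts in Cre 1 to 3 and 6, 27 and 38 counts in flox 1 to 3. Its log2 ratio was 0.47 ± 0.77 (edgeR adjusted p = 0.697), and leaving out single libraries moved it between 0.03 (flox 1 out) and 0.91 (flox 3 out). In Cre 2 Igfbp2 was lowest of its group and Igfbp5 highest.

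**Figure D3:**
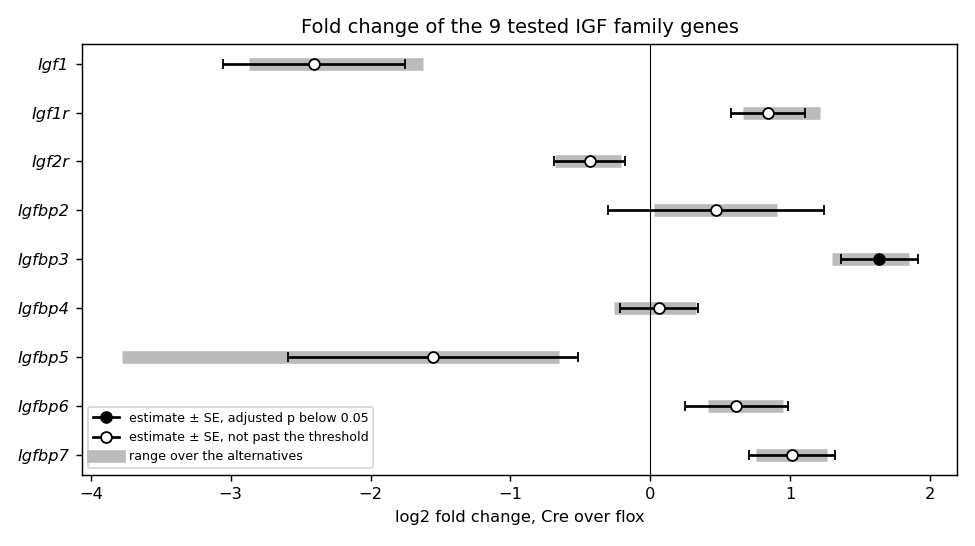
Log2 fold change, Cre over flox (horizontal axis), of the 9 tested IGF family genes, with the standard error as black bars and the range over the alternatives as grey bars. Igfbp3 (1.64) is the filled point, past the threshold, Igf1 lies at -2.41 and Igfbp5 has the widest grey bar, from -3.78 to -0.65.

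Across the family, 1 of the 9 tested members rose and 0 fell, or 11.1%, beside 15.3% of all genes (6.35% higher, 8.94% lower). For 4 of the 9 the groups were fully apart in CPM, of which 3 were higher in Cre and 1 lower, beside 39.6% of all genes (19.6% higher, 20.0% lower). Both shares of the family were near those of all genes. The median log2 fold change of the 9 was 0.47, and that of all genes 0.01. limma-voom also called Igfbp3 alone, beside 9.49% of all genes, as did edgeR without Cre 3, beside 8.95%. Without a count filter edgeR called Igfbp3 and Igf1, beside 9.87%, and limma-trend on genes with a mean of at least 1 FPKM called Igfbp3 and Igfbp7, beside 20.4%. DESeq2 called 4 members, Igf1 lower and Igf1r, Igfbp3 and Igfbp7 higher, beside 29.3% of all genes. Without flox 3 the edgeR test called the same 4 and Igf2r, beside 34.8% of all genes. Without flox 1, flox 2, Cre 1 or Cre 2 it called 0 members and 0 genes, with 3, 4, 4 and 5 members at an unadjusted p below 0.05. The summed FPKM of the 6 binding proteins exceeded that of Igf1 by a factor of 164, 134 and 220.2 in Cre 1 to 3 and of 16.5, 5.91 and 88.2 in flox 1 to 3. These factors did not overlap, and an exact permutation test of 3 libraries against 3 cannot go below p = 0.10.

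**Figure D4:**
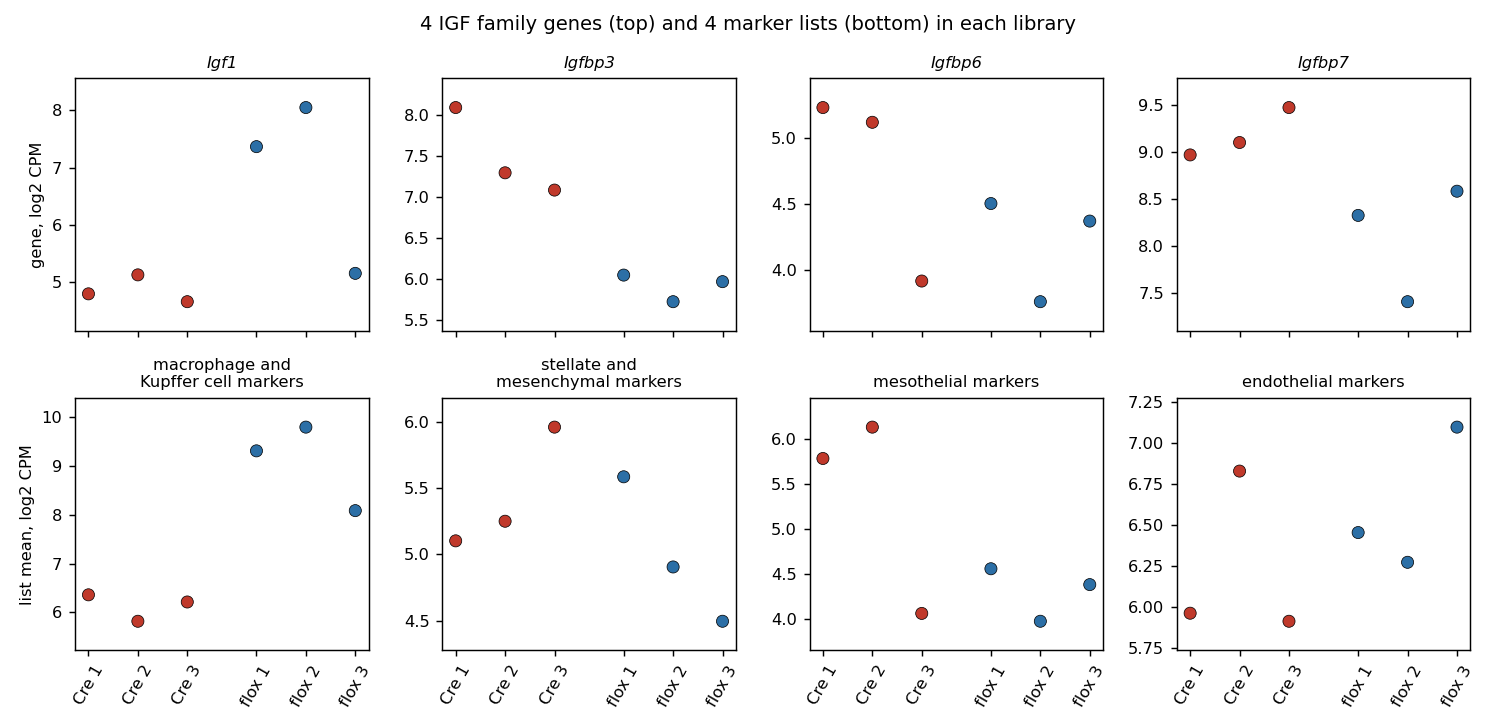
Log2 CPM (vertical axes, scaled to each panel) of Igf1, Igfbp3, Igfbp6 and Igfbp7 in the top row and the mean log2 CPM of macrophage, stellate, mesothelial and endothelial marker lists in the bottom row, by library (Cre 1 to 3, then flox 1 to 3). The macrophage mean is 5.81 to 6.36 in Cre and 8.09 to 9.80 in flox, and the mesothelial mean drops to 4.06 in Cre 3, where Igfbp6 is the lowest of the Cre libraries.

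Other genes of the IGF pathway were taken from 4 lists by role. Of 62 listed genes 61 were in the table and 58 were tested, of which 3 rose and 8 fell. This is 18.97% called, beside 15.3% of all genes, and the median log2 fold change was -0.01. Without flox 1, flox 2, Cre 1 or Cre 2 edgeR called 0 of them, with 16, 17, 15 and 20 at an unadjusted p below 0.05, and without flox 3 it called 26.

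Of 9 tested genes that process or resemble binding proteins 1 rose and 2 fell, beside 6.35% and 8.94% of all genes, and 6 did not pass. Their median log2 ratio was 0.76. Adam12, a metalloprotease that cleaves IGFBP3 and IGFBP5, rose to 95.7, 84.6 and 75.3 CPM in Cre 1 to 3, against 41.6, 20.3 and 34.7 CPM in flox 1 to 3 (log2 fold change 1.40 ± 0.26, edgeR adjusted p = 0.0256). The secreted serine protease Htra1 fell to 29.3, 14.3 and 21.8 CPM in Cre 1 to 3, against 122, 148 and 36.2 CPM in flox 1 to 3 (-2.23 ± 0.53, edgeR adjusted p = 0.0404). Its flox 3 value was the one nearest to Cre. The lysosomal protease Ctsd fell at -1.38 ± 0.31 (edgeR adjusted p = 0.0342), and its exons are partly shared with the predicted gene Gm49369. Pappa, the IGFBP4 protease, and Stc2, its inhibitor, were named after their values were seen, at 1.21 ± 0.42 and 1.18 ± 0.39 (edgeR adjusted p of 0.0935 and 0.0835). Htra3, also not past the threshold, went the other way at -1.61 ± 0.48 (edgeR adjusted p = 0.0675).

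Upstream of the ligands, 1 of 11 tested genes rose and 1 fell, beside 6.35% and 8.94% of all genes, with a median of 0.22. Ghr, the growth hormone receptor gene, rose to 44.2, 48.2 and 44.3 CPM in Cre 1 to 3, against 16.3, 9.08 and 27.1 CPM in flox 1 to 3 (1.38 ± 0.36, edgeR adjusted p = 0.0496). Stat5b, which transmits the growth hormone signal to Igf1, was at -0.35 ± 0.10 (edgeR adjusted p = 0.0600). Igf2bp3, an RNA-binding protein named for its target Igf2, fell to 4, 5 and 6 counts in Cre 1 to 3, against 105, 98 and 61 counts in flox 1 to 3 (-4.23 ± 0.48, edgeR adjusted p = 0.0226). Its exons overlap those of Malsu1 on the opposite strand over 1529 bases, and reads of both cannot be told apart without strand.

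Receptor adaptors and inhibitors had 0 of 12 tested genes higher and 3 lower, beside 6.35% and 8.94% of all genes, with a median of 0.01. The adaptor Grb2 fell at -1.31 ± 0.24, the phosphatase Ptpn1, which dephosphorylates the insulin receptor, at -1.77 ± 0.32, and Enpp1, a membrane pyrophosphatase that binds the insulin receptor, at -3.44 ± 0.60, each at an edgeR adjusted p of 0.0250. Enpp1 stood at 3.53, 1.95 and 3.69 CPM in Cre 1 to 3 and at 38.6, 50.1 and 10.8 CPM in flox 1 to 3, without overlap. In the PI3K, AKT and TOR list 1 of 26 tested genes rose and 2 fell, beside the same 6.35% and 8.94%, with a median of -0.03. Ddit4, a stress-induced inhibitor of TOR, rose to 53.5, 62.7 and 67.3 CPM in Cre 1 to 3, against 30.5, 35.4 and 37.3 CPM in flox 1 to 3 (0.83 ± 0.13, edgeR adjusted p = 0.0241). Inpp5d, the lipid phosphatase SHIP1 of blood cells, fell at -2.25 ± 0.34, and the kinase subunit Pik3cb at -0.94 ± 0.24 (edgeR adjusted p of 0.0237 and 0.0457). The core kinases Akt1, Akt2 and Mtor were at -0.04 ± 0.11, -0.03 ± 0.16 and -0.10 ± 0.08 and did not pass. All 8 of the pathway genes that fell were lower in flox 3 than in flox 1 and flox 2, as were all 15 macrophage markers and 90.2% of all 1323 genes that fell. The part of macrophage RNA in these values was not tested.

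**Figure D5:**
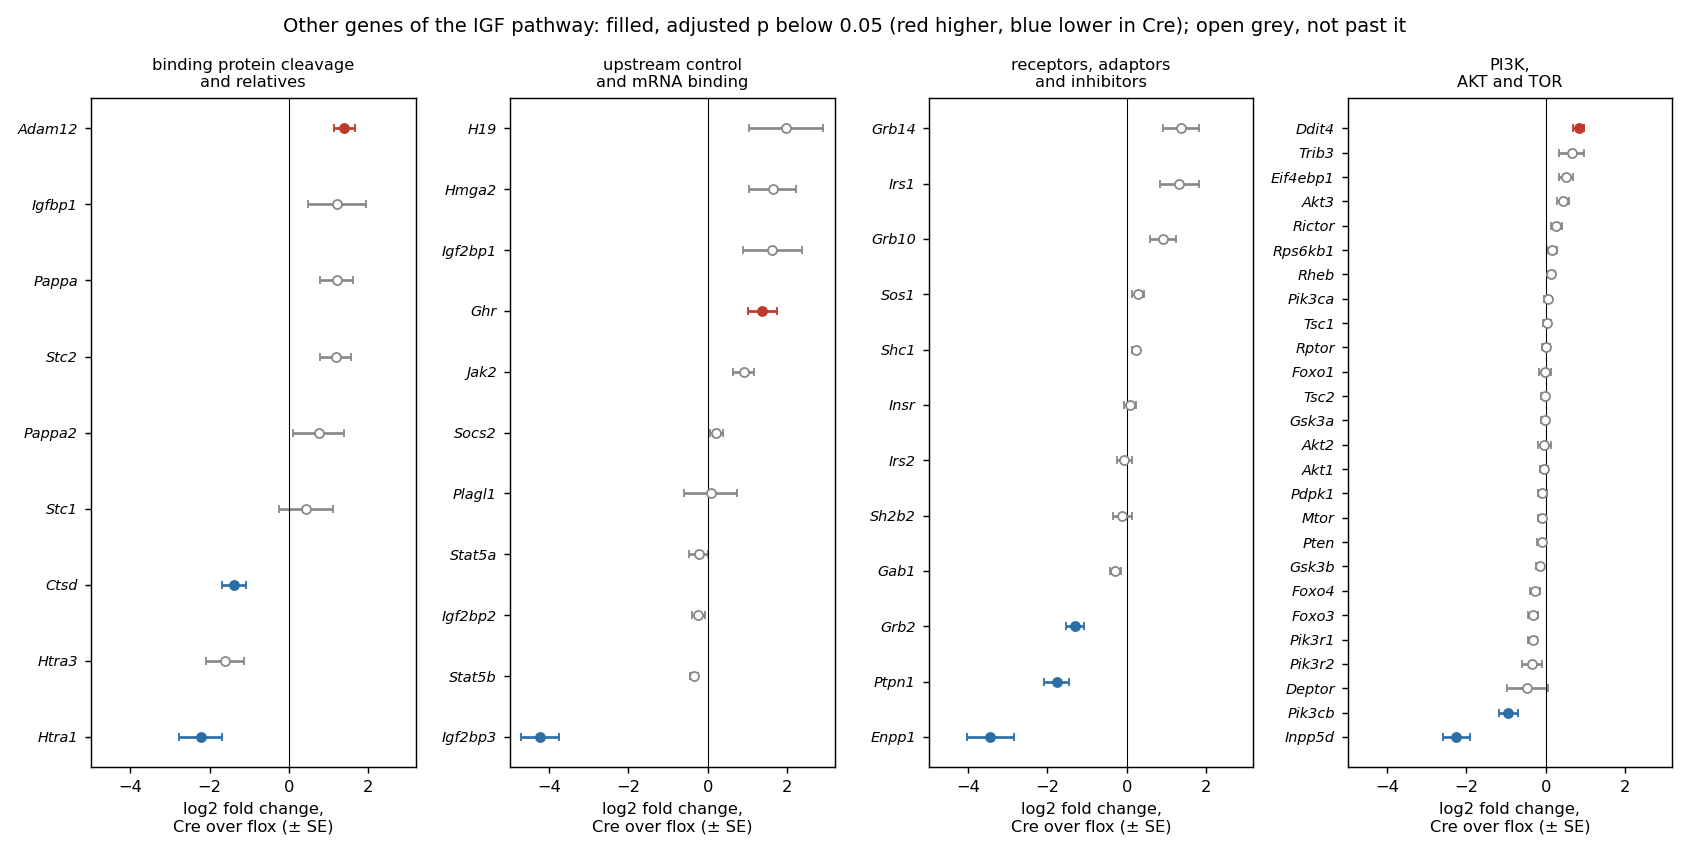
Log2 fold change, Cre over flox (horizontal axis), with the standard error, of 58 tested IGF pathway genes in 4 panels by role. Filled points passed the threshold, 3 in red higher and 8 in blue lower in Cre, with Igf2bp3 at -4.23 the farthest left, and most of the PI3K, AKT and TOR genes lie close to 0.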

How the data were processed

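RNA of 3 Cre and 3 flox libraries was extracted with a column kit and prepared with a SMARTER mRNA kit, per the labels' protocols. The authors deposited raw counts per gene symbol and a table of FPKM. Each deposited FPKM value is its count over the library total and over 1 length per gene (0 of 11560 genes departed from this between libraries by over 1e-06), so they carry no composition factor, and 0 per-sample columns were left unused. The builds GRCm38, mm10 and hg38 appear in the submitters' processing notes without a role, and no source used here states the aligner, counter, annotation or strand.

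The main test was edgeR 4.0.16 in R 4.3.3 on the counts of all genes kept by filterByExpr (minimum count 10, minimum total 15), 14795 of 22966, with TMM factors of 0.905 to 1.07, no covariate, the two-sided quasi-likelihood F-test, Benjamini-Hochberg adjustment and a threshold of 0.05. Standard errors were taken from the log2 fold change and its F statistic (absolute value over root F). CPM are TMM-normalised, with SD over 3 libraries. Alternatives were RLE factors, library totals, DESeq2 1.42.0, limma-voom and limma-trend (limma 3.58.1) on log2(FPKM + 1) and log2(FPKM + 0.1), other filters, a replicate block and each library left out. The methods were tested on simulated data. Gene positions and overlaps are from GENCODE M21 (GRCm38). All members are named, with each called pathway gene, the 3 of lowest p per list, the 3 highest markers of the macrophage and stellate lists and the 5 genes most like Igf1 and Igfbp3. Any further gene was chosen after its values were seen. The members, lists and tests were chosen with earlier results of these data known.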

Additional observations from a re-analysis of the deposited data

How the results depend on the processing

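The log2 fold changes of the 9 tested members kept their direction under every alternative that gave a value, except Igfbp4, which was -0.015 in limma-voom, -0.016 with a replicate block and -0.26 to 0.33 with 1 library left out. Calls were less stable. All genes gave 2263 calls, 4334 in DESeq2 and 1404 in limma-voom, and 0 to 5329 with 1 library left out. Members gave 1 call, 4 in DESeq2, 2 without a count filter, 2 on a mean of at least 1 FPKM, and 0 to 5 with 1 library left out. Pathway genes gave 11 calls, 22 in DESeq2 and 0 to 26 with 1 library left out. Without flox 1, flox 2, Cre 1 or Cre 2 edgeR called 0 genes, with 3720, 3562, 3593 and 3978 at an unadjusted p below 0.05; DESeq2 and limma were not run on such subsets, and the cause was not tested. Libraries of the same replicate number did not deviate together (r of -0.03, -0.10 and -0.06, and 0 of 6 libraries closest to their own number). These are deviations from means of 3 libraries, with flox 3 apart, so they gave no sign of a pairing but cannot exclude it. The replicate block left 0 genes, 0 members and 0 pathway genes past the threshold, with 4296, 5 and 22 at an unadjusted p below 0.05. Library totals, which shift the median of all genes by 0.16, gave 1415 genes higher and 1066 lower in place of 940 and 1323, and limma-trend on log2(FPKM + 1) gave 1250 and 892 for all genes. Pathway genes, 3 higher and 8 lower, became 4 and 5 there, 7 and 5 on log2(FPKM + 0.1), 6 and 5 on a mean of at least 1 FPKM and 11 and 11 in DESeq2, so their balance of directions did not hold. The Igfbp7 share differed by 11.1 percentage points between Cre and flox, from 4.25 without flox 2 to 17.1 without flox 3, and by 17.1 as a share of CPM, which is not per length. Depth limits Igf2, Igfbp2 and Igfbp5, with as few as 4, 6 and 16 counts in a library.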

Other observations

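The genes closest to 2 members over the 6 libraries were listed from 11912 genes with an average of at least 1 log2 CPM, by Pearson's r of log2 CPM, as a description. The 6 points share the group difference and the position of flox 3. Igf1 was followed most closely by Pcyox1, a prenylcysteine oxidase gene, at r = 0.999, then by the kinase gene Pak1 (0.997), 4931406C07Rik, the aldo-keto reductase gene Akr1b10 and the sorting nexin gene Snx24 (each 0.996). Pcyox1 stood at 97.3, 111 and 90.5 CPM in Cre 1 to 3 and at 209.7, 264 and 105 CPM in flox 1 to 3, where Cre 2 lay above flox 3, unlike Igf1 in CPM. Igfbp3 was followed most closely by Aldh7a1, an aldehyde dehydrogenase gene, and the nuclear envelope gene Syne2 (each 0.995), Bex3, and the nucleotide synthesis genes Pfas and Dtymk (each 0.993). Syne2 stood at 272, 202 and 189.8 CPM in Cre 1 to 3 and at 111, 89.0 and 106 CPM in flox 1 to 3, highest in Cre 1 as Igfbp3 was.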
